A study of Homo sapiens with 4 samples.

Results

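Integrins and their partners carry a cell's grip on its surroundings. An integrin is a pair of membrane proteins, an alpha and a beta subunit, that binds matrix proteins or other cells on the outside and is held to actin by talin and vinculin on the inside. CD44 is the main receptor for the matrix sugar hyaluronan, and galectin-1, the product of LGALS1, is a secreted lectin that crosslinks beta-galactoside sugars on surface glycoproteins, integrins among them. In blood cells this set of molecules is known for holding progenitors in the marrow. The genes described here are the alpha subunits ITGAV, ITGA4, ITGA5 and ITGA6, the beta subunits ITGB1 and ITGB5, CD44, LGALS1, and the cytoplasmic linkers VCL (vinculin) and TLN1 (talin-1). They are 10 of the 20045 genes named on the array and have 23 of its 47322 probes, found by gene symbol. The list of genes was drawn up with earlier results of these data known.

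The cells were K562, a BCR-ABL-positive human leukemia line with erythroid features that grows in suspension. A stable K562 line with an shRNA knockdown of KLF3 (2 arrays) was compared with a stable K562 line carrying an shRNA control (2 arrays), and both were grown in the same medium without further treatment. KLF3 belongs to the Krüppel-like factors, binds CACCC boxes and mostly represses its targets. The question was how the transcriptome of these cells differs with less of it. Each condition is a single line, so the knockdown and any other difference between the lines cannot be told apart. Nothing in the labels says that the 2 arrays of a line came from separate cultures, so p-values measure only how far arrays of 1 line spread, possibly for technical reasons.

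KLF3 itself gives no check of the depletion. Its first probe read 139 and 139 intensity units in the knockdown line and 130 and 143 in the control line, and its second read 128 and 121 in the knockdown line and 125 and 118 in the control line. Neither probe was well above background (detection p under 0.01) on any array. Of the 13 erythroid markers with a probe, 12 were detected in both lines, the fetal and embryonic globin genes HBG1, HBE1 and HBZ among them. Across the arrays, 15722 probes were detected on both arrays of at least 1 line and were tested. Of these 34.5% passed the test in either direction (limma, Benjamini-Hochberg adjusted p under 0.05), 16.9% higher and 17.5% lower in the knockdown line. Leaving out control replicate 1 lowered these counts to 937 higher and 930 lower probes, and leaving out control replicate 2 to 915 and 888, in place of 2663 and 2757. With arrays scaled to a common median instead of quantiles, 37.9% of the called probes were higher, against 49.1% in the fit reported here.

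CD44, LGALS1 and ITGAV were lower in the KLF3 knockdown line, while the beta subunits, vinculin and talin-1 did not pass the test. Of the 23 probes, 13 were tested, and 4 of them, from 3 genes, fell while 0 rose; at an unadjusted p under 0.05, ITGA5 is the only further tested probe, and it was also lower. Since the genes were chosen with results known, their counts are a description. Of all tested probes, 17.5% were lower and 34.5% were called in either direction, and the 4 of 13 stand beside these. The 3 of 8 tested genes stand beside 18.5% lower and 35.9% called in either direction among all tested genes (each by its brightest probe). The median log2 difference of the 13 probes was -0.06, against -0.01 for all tested probes. The 2 lines did not overlap for 8 of the 13 probes, which compares with 71.4% of all tested probes. In bulk RNA, fewer cells with a transcript and less of it per cell cannot be told apart.

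**Figure D1:**
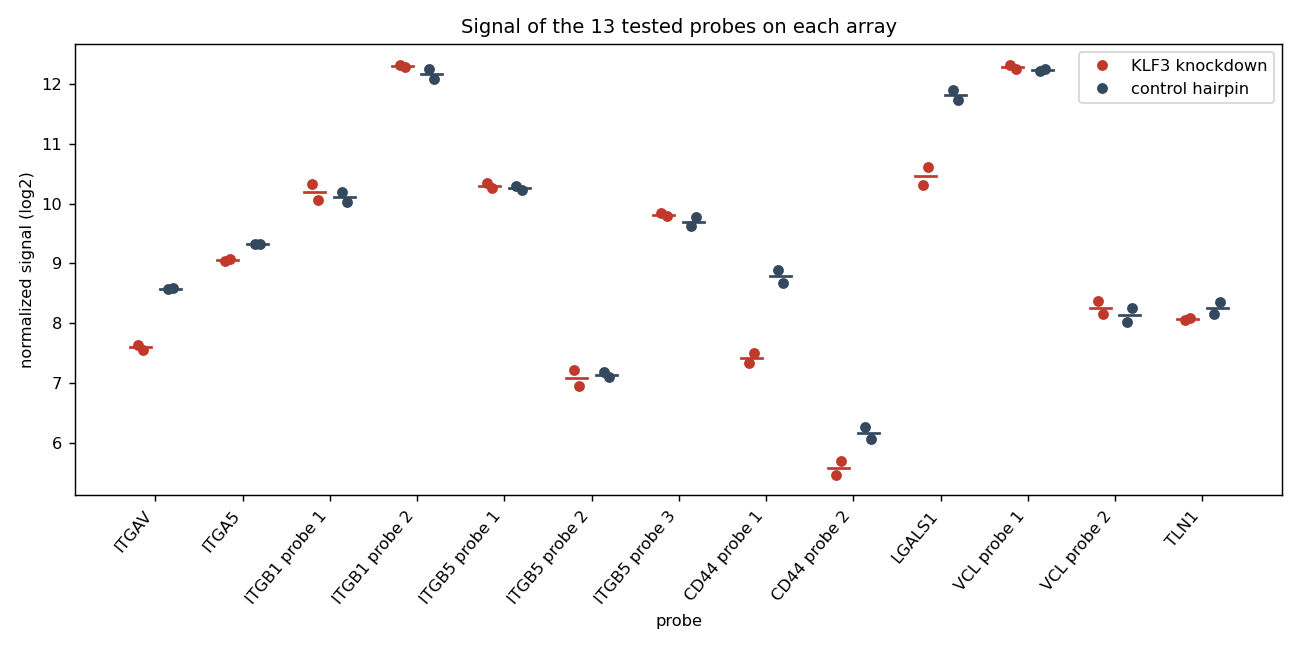
Normalized log2 signal (vertical axis) of the 13 tested probes (horizontal axis) on each array; points are arrays, horizontal lines the mean of the 2 arrays, red the KLF3 knockdown line and dark blue the control line. Signals of different probes are not comparable with each other. The knockdown points lie below the control points for LGALS1 (10.32 and 10.61 against 11.90 and 11.73), the first CD44 probe and ITGAV, and overlap them for VCL.

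LGALS1 encodes galectin-1 and had a single probe. It read 10.32 and 10.61 on the log2 scale in the knockdown line, against 11.90 and 11.73 in the control line. Both knockdown arrays lay far below both control arrays, and as deposited intensities the same probe gave 1422 and 1608 units in knockdown cells against 3991 and 3546 in control cells. LGALS1 was thus 2.56-fold lower, with a log2 difference of -1.35 (SE 0.13, limma adjusted p = 0.0015). Only 0.579% of all tested probes had a lower difference.

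CD44 had 3 probes. The brightest (ILMN_1803429) read 7.33 and 7.50 in the knockdown line, against 8.89 and 8.68 in the control line. The lines were well apart, and the difference was -1.37 (SE 0.11, limma adjusted p = 0.0010), or 2.58-fold lower. A dimmer CD44 probe (ILMN_2348788) read 5.46 and 5.69 in the knockdown line, where 1 of the 2 arrays detected it, against 6.26 and 6.07 in the control line, where both did. It fell as well, by 0.59 (SE 0.12, limma adjusted p = 0.0145). The third (ILMN_1778625) was detected on 1 control array alone, at an intensity of 157, and was not tested. The platform annotation assigns the 3 probes to different CD44 transcripts, a gene known for alternative splicing of its extracellular stalk.

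The brighter and dimmer CD44 probes differed in their response. Tested as a difference within each array, the brighter probe fell by 0.78 more than the dimmer (SE 0.14, limma adjusted p = 0.0134). Among all 3565 pairs of tested probes of the same gene 5.13% differed, and of the 6 pairs within these 10 genes this was the only pair to do so. The dimmer probe lay close to background, with 153 and 158 intensity units in knockdown cells and 190 and 179 in control cells, and the part of that nearness in the pair's difference was not tested. The difference did not pass when either control array was left out (adjusted p = 0.116 without replicate 1 and 0.133 without replicate 2). The dimmer probe's own fall did not pass there either (adjusted p = 0.0966 and 0.0523), nor without the filter on dim probes (0.0711), and without background correction its log2 difference was -0.21.

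The alpha subunits were unlike each other. ITGAV, which encodes alpha-v, the partner of ITGB5 in a vitronectin receptor, read 7.64 and 7.56 in the knockdown line, against 8.57 and 8.59 in the control line. The arrays of each line lay close together, and it fell by 0.98 (SE 0.09, limma adjusted p = 0.0013), a 1.97-fold lower signal. ITGA5, the alpha subunit of the fibronectin receptor, read 9.05 and 9.07 in knockdown cells, against 9.32 and 9.33 in control cells. The lines did not overlap, but the difference of -0.26 (SE 0.08, 95% interval -0.47 to -0.06, limma adjusted p = 0.0542) did not pass over all probes. It passed in the fit with 1 probe per gene (adjusted p = 0.0394) and in 6 of 12 alternatives in all.

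ITGA4, which pairs with ITGB1 to bind VCAM1 and fibronectin, and ITGA6, the laminin-binding alpha subunit, could not be measured. The ITGA4 probe gave 150 and 137 intensity units in the knockdown line, against 143 and 155 in the control line. The 3 ITGA6 probes lay between 105 and 129 units on the knockdown arrays, against 110 and 125 on the control arrays. Both genes were therefore not well above background in either line, and no fold is given.

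Sequences upstream of the start site are shown for the 2 lower genes in the RefSeq promoter table (GRCh38.p14), CD44 and ITGAV, and for VCL, which did not pass, because KLF3 is known to bind CACCC. The windows run from 250 bases before to 50 after the annotated start, on the gene's strand. Capitals mark CACCC or its reverse complement GGGTG.
CD44 (chr11:35138921-35139220, plus strand): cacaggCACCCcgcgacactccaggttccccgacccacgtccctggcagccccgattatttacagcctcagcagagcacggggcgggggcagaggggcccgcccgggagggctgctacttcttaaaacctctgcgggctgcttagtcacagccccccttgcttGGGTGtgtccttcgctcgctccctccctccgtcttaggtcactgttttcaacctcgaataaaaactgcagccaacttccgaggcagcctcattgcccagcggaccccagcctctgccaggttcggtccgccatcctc
ITGAV (chr2:186589806-186590105, plus strand): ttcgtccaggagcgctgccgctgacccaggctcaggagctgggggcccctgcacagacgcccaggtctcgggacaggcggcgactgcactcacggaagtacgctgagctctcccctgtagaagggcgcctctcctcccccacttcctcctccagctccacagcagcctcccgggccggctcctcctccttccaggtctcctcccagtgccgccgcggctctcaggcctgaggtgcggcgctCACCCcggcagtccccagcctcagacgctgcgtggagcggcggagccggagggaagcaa
VCL (chr10:73997866-73998165, plus strand): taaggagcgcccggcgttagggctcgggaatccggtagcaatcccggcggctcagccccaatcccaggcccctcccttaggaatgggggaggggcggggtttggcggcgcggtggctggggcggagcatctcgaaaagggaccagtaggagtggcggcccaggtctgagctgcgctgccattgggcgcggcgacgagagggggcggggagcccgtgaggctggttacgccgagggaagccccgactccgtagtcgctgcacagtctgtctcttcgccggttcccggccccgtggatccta
CD44 held 2 matches, the ITGAV window 1 and the VCL window 0. Other tested genes that did not pass held matches too. TLN1, ITGA5 and the first ITGB1 window held 2 each, and the first ITGB5 window held 1. Further windows of ITGB1 and ITGB5 held 0. ITGAV has a second annotated start, further downstream, whose window (not printed) held 0 matches. In all, 9 of the 10 genes matched the table, all but LGALS1, with 14 windows because 4 genes have several starts. CACCC on either strand was in 8 of these 14 windows (57.1%), close to the 59.9% of all 35116 promoters of the same length. GGGCGG, the box bound by SP1, was in 71.4% of the 14 windows against 44.95% of all promoters. Neither motif contains the other, though their end bases can overlap. The 14 windows held 40.67% to 78.33% G and C, most of them above the median of 58.67% over all promoters. The 2 ITGA6 windows overlap and share a GGGCGG match. The part of base content and overlap in the GGGCGG share was not tested. TGANTCA, the AP-1 motif, was in 7.14% against 7.71%, namely in the ITGA5 window, and the CArG box bound by SRF in 0 of 14 against 1.29%. These matches describe letters in a window and not binding.

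The beta subunits did not pass the test in either direction. ITGB1, the beta subunit shared by the fibronectin, VCAM1 and laminin receptors, had 2 detected probes. Its brighter probe (ILMN_1723467) read 12.32 and 12.28 in knockdown cells, against 12.25 and 12.09 in control cells, a difference of 0.13 (95% interval -0.10 to 0.37, limma adjusted p = 0.317). The other (ILMN_1714820) read 10.32 and 10.05 in knockdown cells, against 10.20 and 10.02 in control cells, a difference of 0.08 (95% interval -0.23 to 0.38, limma adjusted p = 0.656), with overlapping lines. Both intervals lie above the log2 difference of ITGAV. A further 2 ITGB1 probes were not detected on any array.

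ITGB5, the beta subunit that pairs with alpha-v, had 3 tested probes. The brightest (ILMN_1668374) read 10.34 and 10.26 in knockdown cells, against 10.29 and 10.22 in control cells, and its difference was 0.04 (95% interval -0.17 to 0.26). The next (ILMN_2311166) read 9.84 and 9.79 in knockdown cells, against 9.62 and 9.77 in control cells, with a difference of 0.12 (95% interval -0.11 to 0.35). The dimmest of the 3 (ILMN_1796755) read 7.22 and 6.94 in knockdown cells, against 7.18 and 7.10 in control cells, with a difference of -0.06 (95% interval -0.35 to 0.23). The limma adjusted p of the 3 lay between 0.361 and 0.736, and no pair of ITGB5 probes differed (adjusted p of 0.591 or more).

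The linkers to actin did not pass either. VCL encodes vinculin, which binds talin and actin at adhesion sites. Its brighter probe (ILMN_1795429) read 12.33 and 12.25 in knockdown cells, against 12.22 and 12.26 in control cells, a difference of 0.05 (95% interval -0.16 to 0.26, limma adjusted p = 0.678). The dimmer (ILMN_2413527) read 8.37 and 8.16 in knockdown cells, against 8.02 and 8.26 in control cells, a difference of 0.12 (95% interval -0.18 to 0.43). The lines overlapped for both probes. TLN1 encodes talin-1, which binds the tail of beta subunits and switches integrins on. It read 8.05 and 8.09 in knockdown cells, against 8.16 and 8.36 in control cells, a difference of -0.19 (95% interval -0.44 to 0.06, limma adjusted p = 0.197), below control on both arrays but not past the test.

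**Figure D2:**
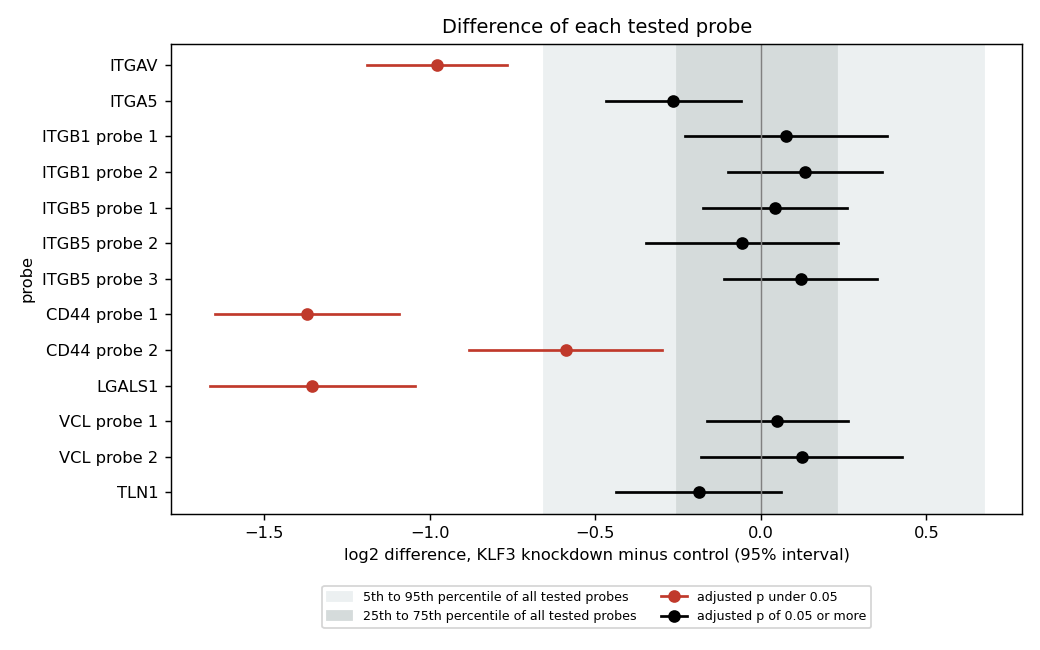
Log2 difference, KLF3 knockdown minus control (horizontal axis), of each tested probe (vertical axis) with its 95% interval from the limma fit; red marks an adjusted p under 0.05, and grey bands span the 25th to 75th and the 5th to 95th percentile of all 15722 tested probes. LGALS1 at -1.35, the CD44 probes at -1.37 and -0.59 and ITGAV at -0.98 are red; the intervals of ITGB1, ITGB5, VCL and TLN1 cross 0.

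ITGAV, ITGA4 and ITGA6 all lie on the long arm of chromosome 2, and ITGAV lies where neighbouring genes were lower too. Of the 10 nearest tested genes on each side of ITGAV, 11 were lower and 1 was higher in the knockdown line, with a median log2 difference of -0.44. The share of lower genes over all 9530 tested genes was 18.5%, and that of higher genes 17.4%. The median over the 619 tested genes of chromosome 2 was -0.06. ITGAV at -0.98 was below 19 of its 20 neighbours. Next to it, ZC3H15 read 9.46 and 9.27 in knockdown cells, against 9.91 and 10.13 in control cells, and fell by 0.66 (limma adjusted p = 0.0102), while TFPI, the tissue factor pathway inhibitor gene, differed by -0.20 (limma adjusted p = 0.133).

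The neighbours of the undetected subunits gave different pictures. Around ITGA4, 10 of 20 were lower and 3 higher, with a median of -0.39. Most of these genes are ITGAV or its neighbours, so the 2 counts largely repeat each other. Of the lower genes only NFE2L2 and PJVK lie outside the ITGAV window. The genes flanking ITGA4, UBE2E3 and ITPRID2, fell by 0.45 and 0.73 (limma adjusted p = 0.0138 and 0.0040). Around ITGA6, 3 of 20 were lower and 4 higher, with a median of -0.01. Its flanking genes were DLX1, which fell by 0.31 (limma adjusted p = 0.0353), and MAP3K20, which differed by -0.05 (limma adjusted p = 0.706). The part of the chromosome region in the ITGAV difference was not tested.

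**Figure D3:**
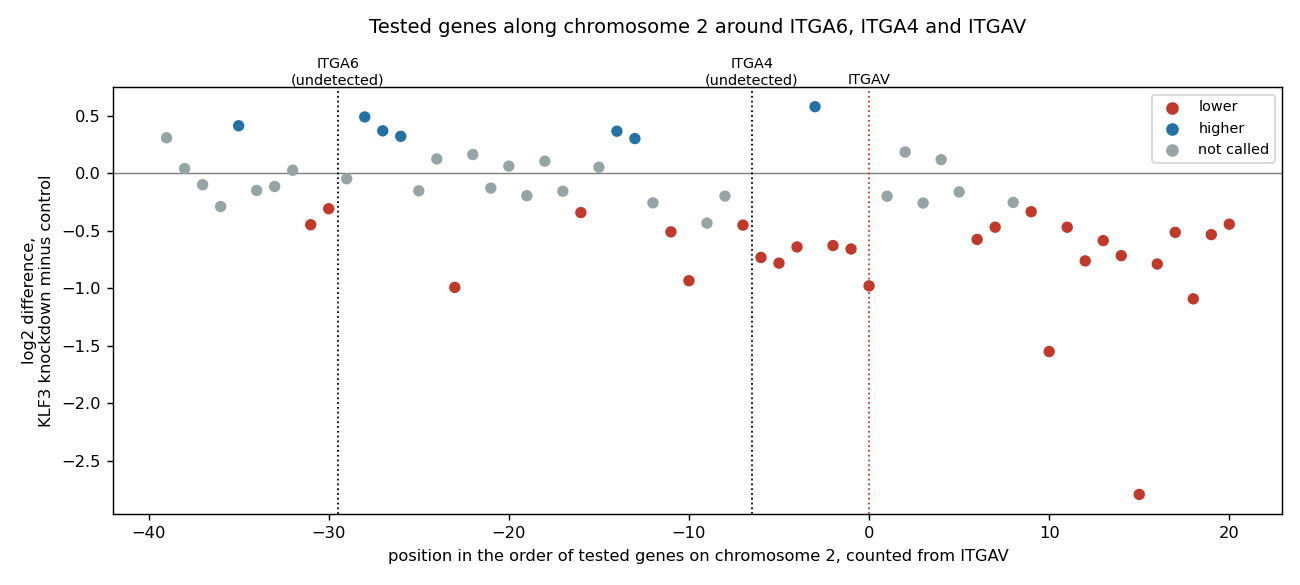
Log2 difference, KLF3 knockdown minus control (vertical axis), of tested genes in their order along chromosome 2, counted from ITGAV (horizontal axis); points are genes, coloured by call, and dotted lines mark ITGA6, ITGA4 and ITGAV. Of the 20 neighbours of ITGAV 11 are red (lower), and of the 20 around ITGA6 3 are red.

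CD44 and LGALS1 were each below all of their nearest neighbours. Only 0.560% and 0.579% of all tested probes had a lower difference, so being below 20 genes says little about their regions. CD44, on chromosome 11, was lower than all 20 of its nearest tested genes, of which 4 were lower and 4 higher, with a median of 0.02. LGALS1, on chromosome 22, was likewise below all 20, of which 6 were lower and 2 higher, with a median of -0.10. Among these lower genes IFT27, SH3BP1, MICALL1 and PLA2G6 were not well above background in the knockdown line. They entered the test through the control line, and each was only at least 1.04-fold to 1.31-fold lower. Over all tested genes 18.5% were lower and 17.4% higher. The neighbours' medians of the other 5 tested genes lay between -0.09 and 0.03.

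Each of CD44 and LGALS1 was among the 3 genes nearest to the other in profile. Likeness was the distance between log2 values centred on their mean over the 4 arrays, so that with 2 lines it mostly reflects a like difference. The genes nearest to the brighter CD44 probe were CLIP2, LGALS1 and TMEM273, at distances of 0.079, 0.095 and 0.125. Those nearest to LGALS1 were CD44, ARHGEF16 and FAM107B, at 0.095, 0.106 and 0.114. CLIP2 and ARHGEF16 were not well above background on the knockdown arrays, so their own values there are bounds.

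The wider set of adhesion genes was called about as often as all genes on the array. From 5 lists of related genes, 131 had a probe, 58 were tested, 11 rose and 10 fell, against 17.4% higher and 18.5% lower among all tested genes. Their median log2 difference was -0.06, against -0.01 for all genes. These counts were lower with either control array left out, and fewer listed genes fell without knockdown replicate 2. In each of these fits fewer of all tested probes were called too.

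Of 20 other integrin subunits, 16 were not detected on both arrays of either line, among them ITGA2B and ITGB3, which form the platelet fibrinogen receptor. Of the 4 tested, ITGB7, the beta subunit of a gut-homing receptor, rose. It read 5.65 and 5.75 in knockdown cells, against 5.21 and 5.01 in control cells, where it was not well above background, so it was at least 1.14-fold higher (limma adjusted p = 0.0097; 0.0742 without control replicate 2). Its log2 difference was 0.59, and 0.20 without background correction. Such a bound sets the detected line's mean against the lowest signal that counted as detected, or the probe's own where that is higher. ITGAM, ITGB2 and ITGAE, all leukocyte integrin genes, differed by 0.19, -0.24 and -0.05 and did not pass.

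Among adaptors and focal adhesion genes, 3 rose and 5 fell of 25 tested, with a median of -0.10. GIT1, a scaffold that binds paxillin, fell by 0.50 (SE 0.09, limma adjusted p = 0.0094) and VASP, which promotes actin filament growth at adhesion sites, by 0.42 (SE 0.08, limma adjusted p = 0.0141). FERMT2, encoding kindlin-2, which works with talin on beta tails, read 7.91 and 7.83 in knockdown cells, against 8.20 and 8.24 in control cells, and fell by 0.35 (limma adjusted p = 0.0274). In the other direction, LIMS1, encoding PINCH1, a partner of integrin-linked kinase, rose by 0.41 (SE 0.09, limma adjusted p = 0.0157), and RAP1A, a small GTPase that leads to talin recruitment, rose by 0.53 (SE 0.12, limma adjusted p = 0.0216). ILK itself differed by 0.00 (limma adjusted p = 0.997) and PTK2, the focal adhesion kinase gene, by -0.25 (limma adjusted p = 0.0754); both were chosen after their values were seen. Without control replicate 1 or control replicate 2, GIT1, VASP, FERMT2, LIMS1 and RAP1A did not pass, with adjusted p between 0.0550 and 0.151; nor did FERMT2 without knockdown replicate 2 (0.0878) or RAP1A without knockdown replicate 1 (0.0678). Without the filter on dim probes VASP, LIMS1, RAP1A and FERMT2 did not pass (adjusted p of 0.0553 to 0.0959), and without background correction GIT1 differed by -0.20 and RAP1A by 0.21.

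Of the genes for integrin ligands, 20 of 29 were not detected, fibronectin (FN1) and VCAM1 among them. ICAM4, the Landsteiner-Wiener blood group protein of red cells and an integrin ligand, read 9.08 and 8.99 in knockdown cells, against 8.08 and 8.27 in control cells. Both knockdown arrays were higher, and the rise was 0.86 (SE 0.10, limma adjusted p = 0.0031), or 1.81-fold. The laminin chain genes LAMB2, at least 1.10-fold lower, and LAMC1, at least 1.13-fold higher, each rested on signals near background (limma adjusted p = 0.0197 and 0.0407); neither passed without background correction, where their log2 differences were -0.13 and 0.13, or with any array left out save LAMB2 without knockdown replicate 1 (adjusted p = 0.0383).

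Genes around CD44 and hyaluronan had 1 higher and 2 lower of 10 tested, with a median of -0.21. CEMIP2, a cell-surface hyaluronan-degrading protein gene, read 6.45 and 6.59 in knockdown cells, against 7.16 and 6.98 in control cells, and fell by 0.54 (SE 0.11, limma adjusted p = 0.0129). MSN, encoding moesin, which ties the CD44 tail to actin, fell by 0.38 (SE 0.10, limma adjusted p = 0.0362), while the related EZR and RDX differed by 0.15 and 0.07 and did not pass. HMMR, another hyaluronan-binding protein gene with a role at the mitotic spindle, rose by 0.38 (SE 0.10, limma adjusted p = 0.0310). Without control replicate 1, CEMIP2, MSN and HMMR had adjusted p of 0.0888, 0.173 and 0.157; without control replicate 2, MSN and HMMR had 0.128 and 0.117. MSN did not pass without knockdown replicate 2 (0.115), nor HMMR without knockdown replicate 1 (0.0960) or with median scaling (0.0640). Without the filter on dim probes CEMIP2, MSN and HMMR had adjusted p of 0.0613, 0.128 and 0.111, and without background correction CEMIP2 differed by -0.27.

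Among galectins and galectin ligands, 4 rose and 2 fell of 10 tested, with a median of 0.17. SPN, encoding CD43, a sialomucin that galectin-1 binds on leukocytes, read 8.57 and 8.45 in knockdown cells, against 7.29 and 7.40 in control cells. It rose by 1.16 (SE 0.10, limma adjusted p = 0.0010), or 2.24-fold, opposite in direction to LGALS1. SPN lies on chromosome 16, where 244 of 458 tested genes were higher and the median log2 difference was 0.36, and the part of the chromosome in its rise was not tested. LGALS12, encoding galectin-12, was at least 1.56-fold higher (limma adjusted p = 0.0052), a bound that holds with background correction, since without it the log2 difference was 0.28. BSG, encoding basigin, and LAMP1, a heavily glycosylated lysosomal membrane protein gene, rose by 0.51 and 0.37. ST6GAL1, the sialyltransferase whose product masks galectin-1 binding sites, read 9.23 and 9.20 in knockdown cells, against 9.79 and 9.82 in control cells, and fell by 0.58 (SE 0.08, limma adjusted p = 0.0053). BSG and LAMP1 did not pass without control replicate 1 (adjusted p = 0.0722 and 0.122) or control replicate 2 (0.0918 and 0.103), nor ST6GAL1 without control replicate 2 (0.0511), and LAMP1 also not without either knockdown array (0.0546 and 0.0569). Without the filter on dim probes BSG and LAMP1 had adjusted p of 0.0594 and 0.0719. LGALS3, encoding galectin-3, was not detected on any array.

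**Figure D4:**
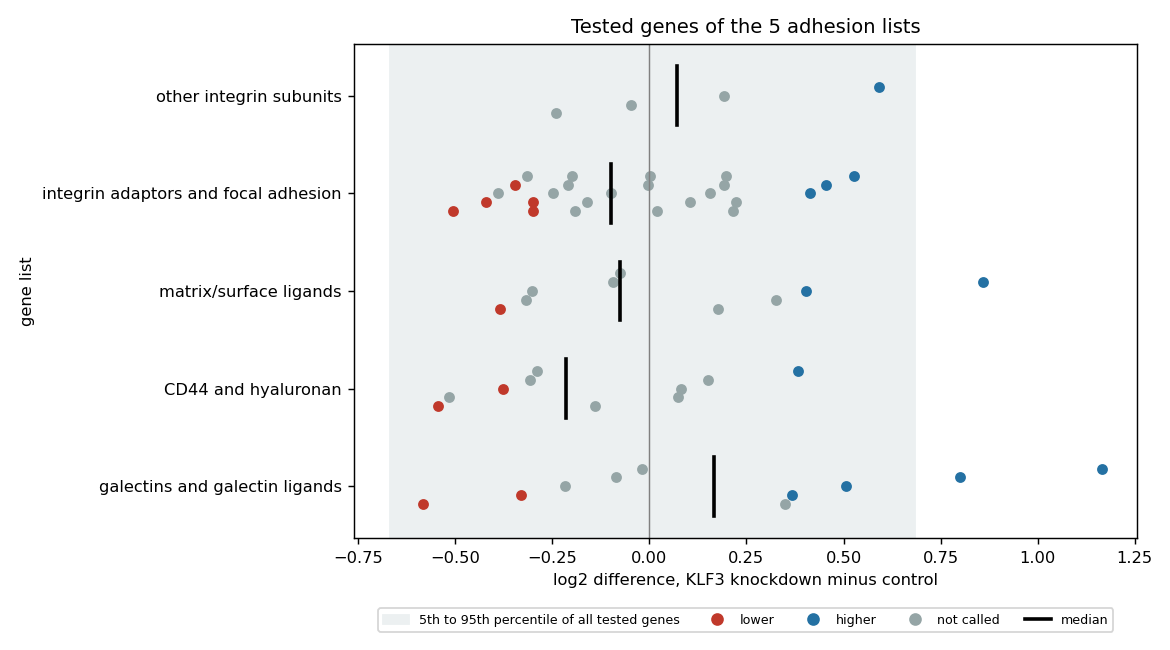
Log2 difference, KLF3 knockdown minus control (horizontal axis), of the tested genes of 5 adhesion lists (vertical axis); points are genes, coloured by call, black bars are list medians and the grey band spans the 5th to 95th percentile of all tested genes. The medians lie between -0.21 and 0.17, and SPN at 1.16 and ICAM4 at 0.86 are the rightmost points.

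Markers of other cell types and of the erythroid lineage are given beside these genes, their counts against 17.4% higher and 18.5% lower among all tested genes. Erythroid markers rose in 7 and fell in 1 of 12 tested, with summed intensities of 51788 to 55719 in the knockdown line against 30429 to 32510 in the control line. Most of this difference came from the globin genes HBE1, HBZ and HBG1. Their means were 11430, 9432 and 20379 units in the knockdown line, against 3423, 2162 and 14922 in the control line. TFRC fell, and GATA1, TAL1, EPOR and ANK1 did not pass. Of the 10 myeloid markers 4 were tested and 3 rose, with sums of 2138 to 2269 in the knockdown line against 1581 to 1626 in the control line. Most of this difference came from LYZ, with a mean of 854 units in the knockdown line against 326 in the control line. TYROBP (177 against 152) and CD14 (168 against 154) rose near background, and ITGAM did not pass. MPO, ELANE and CSF1R were not detected. For 10 megakaryocyte markers the sums were 1456 to 1483 in the knockdown line against 1385 to 1415 in the control line. Of these, 3 were tested and 1, TUBB1, rose. It read 265 and 237 units in the knockdown line against 140 and 152 in the control line, where it was not well above background. TUBB1 was thus at least 3.22-fold higher (limma adjusted p = 0.00070). PPBP and GP1BA did not pass, and ITGA2B, GP9 and PF4 were not detected. Of 6 lymphoid markers with a probe 1 was tested and did not pass, with sums of 848 to 896 in the knockdown line against 847 to 874 in the control line. None of 9 fibroblast markers was detected, with sums of 1149 to 1156 in the knockdown line against 1150 to 1151 in the control line. Whether the changes of these erythroid and myeloid markers have a part in the decreases of CD44, LGALS1 and ITGAV was not tested.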

How the data were processed

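The authors deposited scanner intensities and detection p-values for 47322 probes on 4 Illumina arrays, per the file headers; the intensities were linear and not normalized. RNA was isolated with Trizol and biotin-labelled with an Illumina amplification kit, per the labels' protocols; no source read here names the scanner software. The authors' second table of processed intensities had medians of 138.5 on every array, and its method is not stated. Here, background correction and quantile normalization used the neqc function (limma 3.58.1 under R 4.3.3, offset 16). The offset shrinks log2 differences of dim probes, while background correction can enlarge them. The dimmer CD44 probe, for example, differed by -0.59 with background correction and by -0.21 without it. Probes detected (p under 0.01) on both arrays of at least 1 line were fitted in limma (lmFit, eBayes, two-sided, 2 residual and 4.09 prior degrees of freedom, Benjamini-Hochberg over 15722 probes, threshold 0.05). An exact permutation of 2 against 2 arrays cannot go below p = 0.333. The number of arrays limits the precision. Errors after SE come from this fit. Symbols came from the platform annotation, updated by gene identifier through a GRCh38.p14 table; it gave 1 symbol for 30112 probes and several for 8, and did not list 17202. Listed genes stand by their brightest tested probe.

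The members and lists were chosen with earlier results of these data known. Named by rule were KLF3, the 10 members and called genes of the other integrin list. So were up to 5 called genes with the smallest adjusted p of each other list. The 3 nearest profiles to CD44 and LGALS1 and the flanking genes on chromosome 2 were also named by rule. Other list genes and other neighbouring genes were chosen after their values were seen.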

Additional observations from a re-analysis of the deposited data

How the results depend on the processing

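Over 12 alternatives the decreases of LGALS1, the brighter CD44 probe and ITGAV passed in each, with log2 differences of -1.50 to -1.21, -1.48 to -0.96 and -1.06 to -0.68. ITGA5 ranged over -0.34 to -0.22, with adjusted p of 0.0134 to 0.221, and TLN1 passed in 0 of 12. Without the filter on dim probes, 1152 probes rose and 1121 fell, 5 and 2 listed genes were called and 324 probe pairs differed. Pairs that differed numbered 502 without background correction, 523 with the authors' processed values and 107 with the replicate block; with detection on all 4 arrays no pair among the 10 genes differed (0, since the dimmer CD44 probe was then left out). With 1 array left out, the lone array was assumed to vary like the other line's arrays. Higher probes then ranged over 915 to 2413 and lower ones over 888 to 2363, listed genes over 3 to 11 higher and 1 to 12 lower, all differing pairs over 38 to 455 and those among the 10 genes over 0 to 1. Same-numbered arrays did not deviate together (correlation 0.0089). With 2 normalized arrays per line this cannot tell whether the numbers pair the lines. The replicate block gave 2381 higher and 2455 lower probes and left the member calls at 4; LAMC1 alone of the named genes missed the threshold (adjusted p = 0.0503). Signs turned for 8 values that never passed. VCL was -0.0027 with median scaling. With 1 array left out, a probe of ITGB1 ranged over -0.055 to 0.21 (-0.011 without control replicate 2) and one of ITGB5 over -0.20 to 0.084. Pair differences then ranged over -0.17 to 0.054 for ITGB1, -0.0028 to 0.20 and -0.19 to 0.037 for ITGB5 and -0.17 to 0.026 for VCL. The cause of these shifts was not tested. A slide block was not run, since the files used name no slide. Where signal is near background, as for ITGA4, ITGA6 and KLF3, these arrays set no difference.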
